A study of Mus musculus with 3 samples.

Results

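A set of 10 transporter genes known from blood-tissue barriers was followed over the classes of nuclei of the mouse dorsal root ganglion (DRG). They are Slc2a1, Slc16a1, Slc7a5, Mfsd2a, Abcb1a, Abcg2, Slc47a1, Slc26a7, Slc4a10 and Slco1a4, 10 of the 32227 genes in the count tables, and they were chosen by name because earlier readings of these same tables had shown them in nuclei of vessels and of the sheath around the ganglion. Their levels over classes are therefore a description without a test, and only the comparison between ages was tested. All 10 genes were found in the tables, each with UMIs in all 3 libraries.

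The tables hold single-nucleus RNA sequencing of lumbar DRG (L3 to L5) of male C57BL/6 mice, with 1 library from adult mice of 3 months and 2 libraries from aged mice of 21 months, with no agent or genetic change named in the labels. A unique molecular identifier (UMI) marks 1 captured RNA molecule, and barcodes with more than 1000 detected genes were kept as nuclei, 11518 in the adult library, 5130 in aged library 1 and 2611 in aged library 2. The study calls its libraries biological replicates, but how many mice each library pooled is not given in the labels, and p-values measure only the spread between these libraries. Since only 1 library was adult, whatever else set it apart from the aged ones and age itself cannot be told apart. For the age of the aged mice the sample labels and the series text differ, and the sample labels were used here. The study's list of animals gives aged mice as female, where the labels give male. For its explant cultures the study names mice of both sexes.

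The DRG lies outside the blood-brain barrier, and its vessels are leakier than those of the nerve and the brain. A barrier endothelial cell keeps solutes from crossing between cells and instead carries glucose, amino acids and lipids through specific carriers, while ABC exporters return drugs and toxins to the blood. A second diffusion barrier is formed by the sheath cells that wrap nerve and ganglion, the perineurium and, towards the root, the meninges, which carry their own exporters and ion exchangers.

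Nuclei were sorted into classes by marker genes, with the 10 genes kept out of the clustering. The endothelial-like cluster held 201, 177 and 61 nuclei (adult, aged 1, aged 2) and had all 12 endothelial markers, among them Pecam1, Flt1 and Cdh5, where a marker counted if it was in at least 10% of the nuclei and over 2 times its mean CPM in the other clusters. Fibroblast-like nuclei fell into 4 clusters, which are called here by their first leading gene that is neither one of the 10 nor an unnamed gene model. Slc47a1 itself led the cluster called Tspan11, with Slc4a10 and Slc26a7 also among its leading genes, as Slco1a4 was in the endothelial-like cluster. The levels of these 4 genes there are thus what the clusters look like and not findings about them. The Tspan11 cluster (449, 95 and 67 nuclei) was meningeal-like, with 8 of 9 meningeal markers, beside 3 of 8 epineurial ones. The smaller Ranbp3l cluster (137, 21 and 11 nuclei) was meningeal-like with 7 of 9, beside 3 of 9 perineurial ones. The Mmp2 cluster (226, 118 and 61 nuclei) was endoneurial-like with 7 of 8 markers, beside 6 of 9 meningeal ones. The Ccdc33 cluster (504, 169 and 61 nuclei) had 7 of 9 perineurial and 7 of 9 meningeal markers and so got no kind of its own, although Itgb4, an integrin chain of perineurial cells, stood at 645, 952 and 1264 counts per 1000000 UMIs (CPM) in it and at no more than 226 CPM in the other fibroblast clusters. The label of sheath cells thus rests on these marker counts, and the perineurial and meningeal sheath could not be separated in the Ccdc33 cluster.

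Levels are CPM, here the UMIs of a gene summed over the nuclei of a class in 1 library and scaled to 1000000 UMIs of those nuclei, in the order adult, aged 1 and aged 2. The same quantity in barcodes with fewer than 100 UMIs, which hold RNA free in the suspension, is called free RNA, and levels are read against it. By estimate, free RNA made up only a part of a class's UMIs, in endothelial-like nuclei 42.75%, 25.44% and 16.42%. A level below free RNA thus does not show that the nuclei lack the RNA. Intervals on counts (exact Poisson) and on shares of nuclei (exact Clopper-Pearson) cover counting error only, and levels of different genes were not compared with each other.

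Promoter windows of 4 vessel genes and of Slc4a10, the sheath gene for which a window was at hand, are shown here because they surround the RefSeq starts of these genes. The windows run from 250 bases before to 50 bases after the RefSeq start (build GRCm38.p6), 5′ to 3′ on the strand of the gene, and such a window was at hand for 7 of the 10 genes, but not for Slc7a5, Slc47a1 and Slc26a7. Capitals mark any of 5 motifs searched on both strands, the TATA box TATAAA, the GC box GGGCGG, the E-box CACGTG, the TCF/LEF core CTTTGA and the ETS core CCGGAA, which did not overlap one another in these windows.
Slc2a1 (chr4:119108495-119108794, plus strand): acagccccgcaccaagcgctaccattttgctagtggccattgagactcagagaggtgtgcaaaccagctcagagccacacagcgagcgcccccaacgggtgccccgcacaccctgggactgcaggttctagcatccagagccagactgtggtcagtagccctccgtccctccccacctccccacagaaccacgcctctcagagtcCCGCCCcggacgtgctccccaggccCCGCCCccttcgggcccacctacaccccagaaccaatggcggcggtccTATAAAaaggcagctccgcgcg
Mfsd2a (chr4:122961139-122961438, minus strand): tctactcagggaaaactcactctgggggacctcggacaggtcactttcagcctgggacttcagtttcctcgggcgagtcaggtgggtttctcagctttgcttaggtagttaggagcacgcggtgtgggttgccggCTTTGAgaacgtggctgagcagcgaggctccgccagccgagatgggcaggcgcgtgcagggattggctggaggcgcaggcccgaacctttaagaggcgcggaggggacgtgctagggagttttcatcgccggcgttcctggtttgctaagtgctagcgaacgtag
Abcb1a (chr5:8566841-8567140, plus strand): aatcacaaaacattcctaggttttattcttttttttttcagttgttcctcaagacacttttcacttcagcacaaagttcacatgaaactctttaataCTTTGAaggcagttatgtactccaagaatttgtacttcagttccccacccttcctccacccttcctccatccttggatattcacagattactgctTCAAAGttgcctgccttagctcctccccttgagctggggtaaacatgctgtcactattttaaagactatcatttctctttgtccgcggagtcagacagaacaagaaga
Slco1a4 (chr6:141856171-141856470, minus strand): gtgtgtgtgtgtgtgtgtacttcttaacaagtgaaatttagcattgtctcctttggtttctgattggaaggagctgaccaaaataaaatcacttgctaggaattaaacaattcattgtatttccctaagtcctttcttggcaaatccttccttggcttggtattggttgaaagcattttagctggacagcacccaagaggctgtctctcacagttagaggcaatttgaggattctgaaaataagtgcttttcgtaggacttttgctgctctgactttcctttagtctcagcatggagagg
Slc4a10 (chr2:62046265-62046564, plus strand): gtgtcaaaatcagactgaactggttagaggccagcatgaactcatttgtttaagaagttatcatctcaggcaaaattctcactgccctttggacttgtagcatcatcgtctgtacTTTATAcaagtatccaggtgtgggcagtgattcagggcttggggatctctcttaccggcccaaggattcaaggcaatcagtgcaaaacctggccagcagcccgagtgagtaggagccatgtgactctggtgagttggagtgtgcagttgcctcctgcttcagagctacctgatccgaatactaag
The Slc2a1 window held 1 TATA box and 2 GC boxes, at 65.3% G and C, against a median of 52.7% over all 32851 windows. Mfsd2a held 1 TCF/LEF core, and Abcb1a held 2 at 40.3% G and C. No searched motif was found in the Slco1a4 window, and the Slc4a10 window shown held 1 TATA box. A TATA box was present in 13.6% of all windows, a GC box in 35.7%, an E-box in 7.15%, a TCF/LEF core in 16% and an ETS core in 14.9%. Also at hand and not printed were a window of Slc16a1 with 1 GC box and 1 E-box at 73.7% G and C, 3 windows of Abcg2, of which 2 held a TATA box and 2 held GC boxes, and a second window of Slc4a10 without any of the 5 motifs. No searched motif was in the printed windows of all 4 vessel genes, and a match is a description of letters and not of a bound site.

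In build GRCm38 with the GENCODE M21 annotation, Slc2a1 lies on the plus strand at chr4:119108711-119137983 and Mfsd2a on the minus strand of the same chromosome at chr4:122946850-122961188. Abcb1a lies at chr5:8660077-8748575, so that its printed window, upstream on the same strand, lies outside the GENCODE gene altogether, and the annotations differ on where this gene starts. It is followed at chr5:8798147-8866315 by Abcb1b, its close paralog, from which reads of shared sequence may not be told apart. Slco1a4 lies at chr6:141805440-141856199 beside other Slco1a genes, Abcg2 at chr6:58584523-58695676, Slc47a1 at chr11:61343401-61378345 next to its paralog Slc47a2, and Slc4a10 at chr2:62046462-62326730. Slc2a1 overlaps 2 antisense genes, Gm12867 and Gm12868, and Slc16a1 at chr3:104638668-104658462 holds 2 intronic genes on its own strand, Gm43581 and Gm43585. Whether strand was used in counting is not given, so that reads of Slc2a1 may not be told apart from those of its antisense genes, and reads in the introns of Slc16a1 may not be told apart from those of its intronic genes whether or not strand was used. Slc7a5 (chr8:121881150-121907694) and Slc26a7 (chr4:14502430-14621805) complete the set.

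Of the 10 genes, 6 had their highest mean level in endothelial-like nuclei, 3 in the meningeal-like Tspan11 cluster, and 1, Slc16a1, in a small cluster of dividing nuclei. By role, the carriers of glucose, amino acids and lipid and the organic anion carrier were highest in vessels, the glucose carrier also in 1 sheath cluster at a lower level, both ABC exporters were high in vessels and present in sheath clusters, and the organic cation exporter and the ion exchangers were highest in the sheath. The plot of levels by class and library shows this division, with endothelial-like and Tspan11 points far to the right for different genes.

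**Figure D1:**
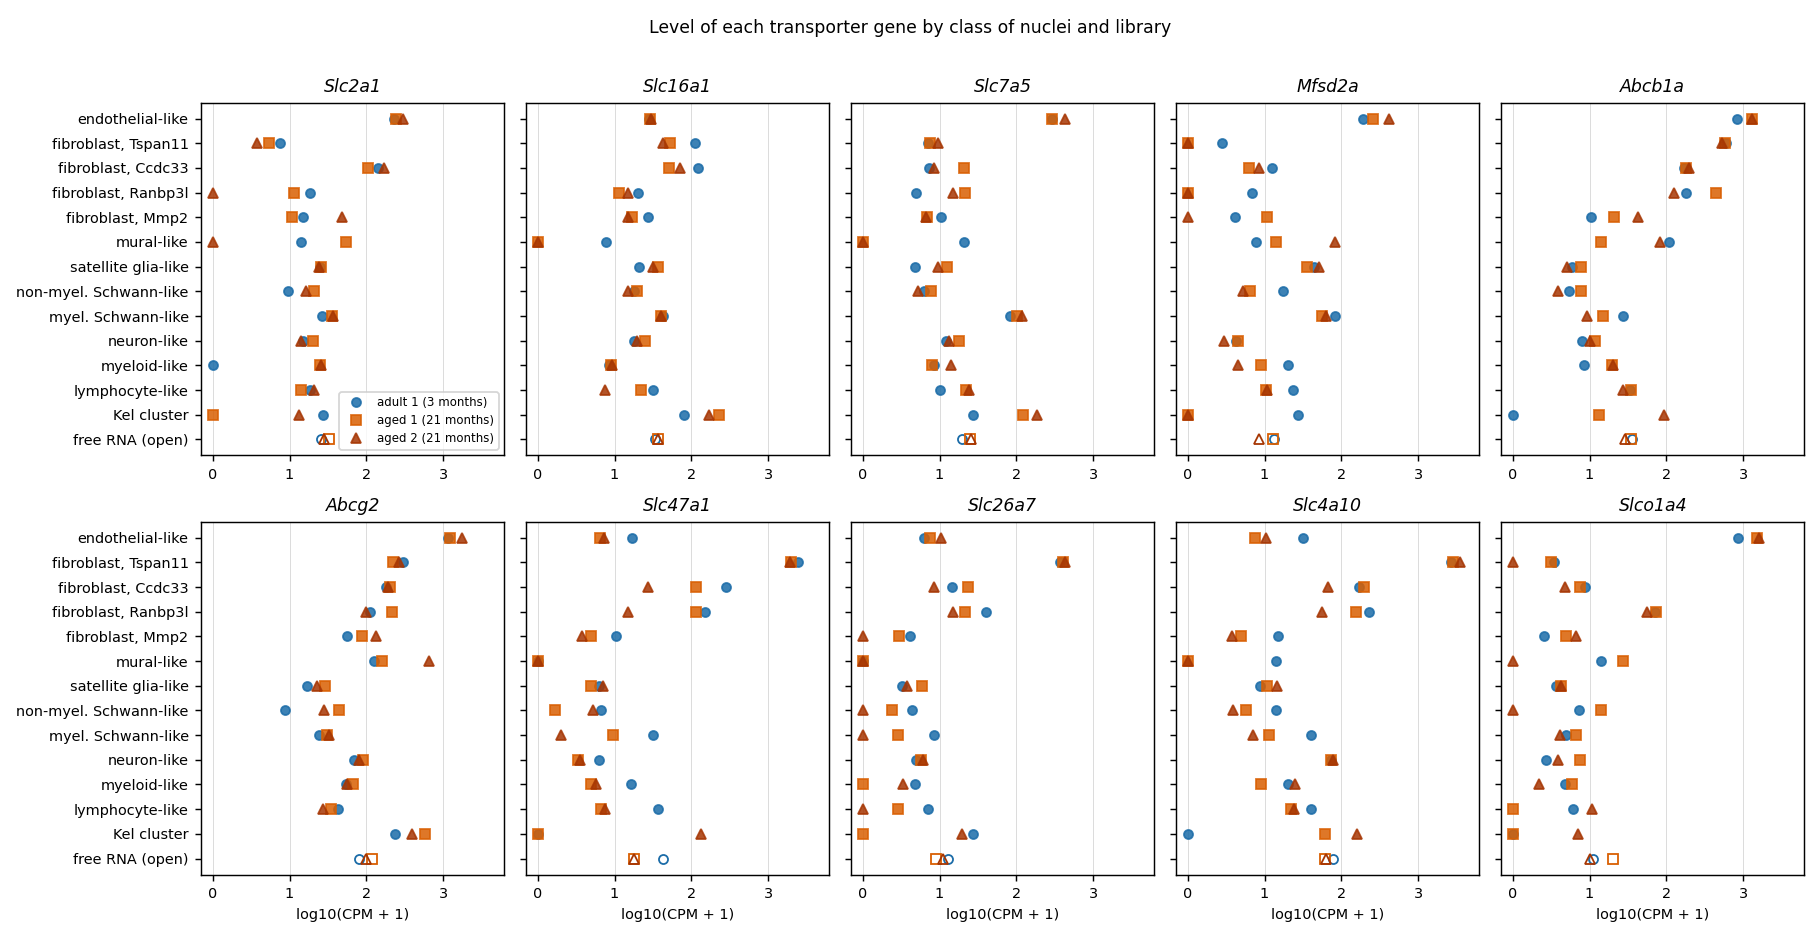
Level of each of the 10 genes as log10(CPM + 1) on the horizontal axis, for each class of nuclei on the vertical axis, with 1 point per library (adult as circles, aged 1 as squares, aged 2 as triangles) and free RNA as open points at the bottom. Slc2a1, Slc7a5, Mfsd2a, Abcb1a, Abcg2 and Slco1a4 sit highest in the endothelial-like row, and Slc47a1, Slc26a7 and Slc4a10 in the Tspan11 row.

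Slc2a1 encodes GLUT1, the glucose carrier of barrier endothelium. It stood at 229, 247 and 302 CPM in endothelial-like nuclei, against 24.4, 32.0 and 27.2 CPM in free RNA. The Ccdc33 cluster followed with 142, 103 and 168 CPM, below every endothelial-like value, and myelinating Schwann cell (MSC)-like nuclei came next at 25.9, 34.2 and 35.8 CPM. These ranges did not overlap from one class to the next. From satellite glial cell (SGC)-like nuclei downwards the neighbours overlapped, and the Tspan11 cluster had the lowest mean, 4.60 CPM, which is below free RNA. Slc2a1 thus marked vessels and the Ccdc33 cluster and was below free RNA in the Tspan11 cluster.

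Slc7a5 encodes LAT1, the carrier of large neutral amino acids, and was at 291, 293 and 433 CPM in endothelial-like nuclei. The cluster led by Kel had 26.6, 122 and 184 CPM from 1, 10 and 30 UMIs and MSC-like nuclei 82.6, 101 and 117 CPM, and these overlapped. All fibroblast clusters were at 20.6 CPM or less in every library, at or below the free RNA level of 18.5, 24.3 and 24.97 CPM. Slc7a5 was thus high in vessels and, at a lower level, in myelinating glia, and not above free RNA in the fibroblast clusters.

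Mfsd2a encodes a carrier of lysophospholipids that is known to hold down vesicle transport across brain endothelium. Its level was 190, 261 and 420 CPM in endothelial-like nuclei, 80.6, 55.1 and 61.4 CPM in MSC-like nuclei and 43.4, 35.2 and 50.3 CPM in SGC-like nuclei, and these 3 ranges did not overlap. Free RNA held 12.2, 11.8 and 7.42 CPM. In the Tspan11 cluster 3 nuclei of the adult library had an Mfsd2a UMI and none of the 95 and 67 aged nuclei did. Pooled over libraries, SGC-like nuclei held 35.9% of the Mfsd2a UMIs of all named nuclei and endothelial-like nuclei 23.0%. SGC-like nuclei numbered 3261, 526 and 257, and only in the adult library did they hold more of these UMIs than endothelial-like nuclei.

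Slco1a4, an organic anion carrier of brain vessels, had the largest share of its UMIs in endothelial-like nuclei among the 10 genes. It was at 849, 1510 and 1633 CPM in endothelial-like nuclei, between 78.6 and 179 times the free RNA level of its library, and these nuclei held 79.1% of its UMIs in named nuclei. The Ranbp3l cluster followed at 69.7, 72.0 and 55.5 CPM from 36, 7 and 4 UMIs, above free RNA at 10.1, 19.2 and 9.14 CPM. Mural-like nuclei had 13.2, 26.4 and 0 CPM from 2, 2 and 0 UMIs, and the other 3 fibroblast clusters and all glial, neuronal, immune and dividing classes had means below 7 CPM. Thinned to 1000 UMIs per nucleus, 41.8%, 53.7% and 60.7% of endothelial-like nuclei had a Slco1a4 UMI, against 0.123%, 0.570% and 0% of SGC-like nuclei, and without thinning these shares were 58.7%, 73.4% and 75.4% against 0.583%, 2.47% and 1.95%.

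Abcb1a encodes P-glycoprotein, an exporter of many drugs. It stood at 831, 1294 and 1298 CPM in endothelial-like nuclei and at 602, 579 and 533 CPM in the Tspan11 cluster, below every endothelial-like value. The Ranbp3l cluster had 182, 442 and 125 CPM and the Ccdc33 cluster 171, 180 and 198 CPM, and these overlapped. The Mmp2 cluster, at 9.40, 19.6 and 42.3 CPM, was below free RNA (34.6, 33.8 and 28.3 CPM) in 2 of 3 libraries. At 1000 UMIs per nucleus, 50.7%, 65.0% and 62.3% of endothelial-like and 38.3%, 33.7% and 32.8% of Tspan11 nuclei had an Abcb1a UMI (without thinning, 70.1%, 86.4% and 82.0% against 70.4%, 75.8% and 67.2%), while SGC-like nuclei had 0.521%, 1.14% and 0%. Pooled over libraries, fibroblast-like nuclei together held 35.5% of the Abcb1a UMIs of named nuclei, endothelial-like nuclei 38.1% and neuron-like nuclei 20.5%. Fibroblast-like nuclei held more of them than endothelial-like nuclei in the adult library and fewer in both aged ones. Fibroblast-like nuclei numbered 1316, 403 and 200 and endothelial-like nuclei 201, 177 and 61. In CPM, endothelial-like nuclei were higher in every library, at 831 to 1298 against 249 to 317 for all fibroblast-like nuclei. The UMIs of this exporter were thus divided between vessel and sheath in proportions that differed by library and also reflect the numbers of nuclei.

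Abcg2 encodes the breast cancer resistance protein, the other main exporter of barrier endothelium. It was at 1148, 1251 and 1744 CPM in endothelial-like nuclei. The Kel cluster had 239, 585 and 398 CPM, mural-like nuclei 126, 158 and 661 CPM from 57, 18 and 3 nuclei, the Tspan11 cluster 297, 223 and 267 CPM and the Ccdc33 cluster 178, 204 and 190 CPM. Free RNA was high for this gene, at 78.9, 119 and 99.2 CPM, and neuron-like nuclei as a whole, at 78.6 CPM ± 11.0 (SD, n = 3), were not above it. Neuron-like nuclei still held 68.4% of the Abcg2 UMIs of named nuclei, and the neuron cluster led by Chrna7 had 251, 331 and 278 CPM, above free RNA in each library.

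Slc16a1, which encodes the lactate carrier MCT1, was not highest in vessels. In endothelial-like nuclei it was at 26.8, 28.2 and 28.6 CPM, below free RNA at 32.3, 36.4 and 35.9 CPM in every library. The highest mean, 161 CPM, came from the cluster led by Kel, a gene of red cell precursors, in which Mki67 and Top2a were also among the leading genes, with 79.7, 231 and 172 CPM from 3, 19 and 28 UMIs. The Ccdc33 cluster had 121, 50.9 and 70.8 CPM and the Tspan11 cluster 110, 52.5 and 42.1 CPM, and these 3 ranges overlapped. MSC-like nuclei were at 41.3, 39.1 and 39.9 CPM, little above free RNA. Neuron-like nuclei held 65.3% of the Slc16a1 UMIs of named nuclei, at a mean of 20.1 CPM. The neuron cluster led by Hapln4 had 48.1, 67.4 and 68.3 CPM, above free RNA in each library.

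Slc47a1 encodes MATE1, a proton-coupled exporter of organic cations. It reached 2482, 2003 and 1936 CPM in the Tspan11 cluster, which held 80.3% of its UMIs in named nuclei. The Ccdc33 cluster had 280, 114 and 26.1 CPM and the Ranbp3l cluster 151, 113 and 13.9 CPM, which overlapped. Endothelial-like nuclei were below free RNA in each library, at 16.1, 5.43 and 6.36 CPM against 41.5, 16.8 and 17.2 CPM. At 1000 UMIs per nucleus 80.6%, 65.3% and 68.7% of Tspan11 nuclei had a Slc47a1 UMI, against 2.49%, 0% and 1.64% of endothelial-like nuclei, and without thinning 90.9%, 76.8% and 79.1% against 3.98%, 1.13% and 1.64%.

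Slc26a7, an anion exchanger, was at 371, 407 and 432 CPM in the Tspan11 cluster. The next cluster, Ranbp3l, had 38.7, 20.6 and 13.9 CPM from 20, 2 and 1 UMIs, and free RNA held 12.0, 8.0 and 10.1 CPM. Slc4a10, a sodium-driven bicarbonate exchanger known from choroid plexus and neurons, was at 2698, 2840 and 3544 CPM in the same cluster. It was at 230, 154 and 55.5 CPM in the Ranbp3l cluster and at 171, 200 and 67.1 CPM in the Ccdc33 cluster, with overlapping ranges. Neuron-like nuclei held 55.8% of the Slc4a10 UMIs of named nuclei and the Tspan11 cluster 38.5%, yet the neuron level, at 71.6, 73.5 and 78.0 CPM, was below free RNA in the adult library and above it in both aged libraries (76.8, 59.5 and 61.3 CPM). Among the neuron clusters the one led by Nxph1 stood highest, at 177, 231 and 247 CPM.

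The genes most like each member over 36 sums (12 classes with 10 or more nuclei in each of 3 libraries) were found by Pearson's r of log2(CPM + 1), a description over points that share libraries. Slc4a10 was most like Slc47a2 (r = 0.93), Slc38a2 (0.90) and Card14 (0.87). Slc47a1 was most like Slc26a2 (0.92), Tspan11 (0.92) and Slc38a2 (0.91), and Slc26a7 was most like Slc47a1 itself (0.84), Slc38a2 (0.84) and Card14 (0.83). Among the vessel genes, Slco1a4 was most like Flt1 (0.89), Vsig2 (0.83) and Degs2 (0.82), and Abcb1a like Cavin2 (0.91), Slco2a1 (0.87) and Fmo2 (0.87). Abcg2 was most like Slc7a1 (0.84), C130074G19Rik (0.83) and Btg3 (0.80), Slc7a5 like Fryl (0.83), Actn4 (0.78) and Rpl19 (0.77), and Mfsd2a like Sema3g (0.79) and Gask1b (0.78). The lowest values belonged to Slc16a1, with Dcaf6 (0.78), Klhl12 (0.77) and Cnnm2 (0.74), and Slc2a1, with Mfge8 (0.74), Slc16a4 (0.72) and Cyyr1 (0.72).

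Between members, r was 0.87 for Slc47a1 and Slc4a10 and 0.72 for Abcb1a and Abcg2. It was 0.62 for Abcb1a and Slco1a4 and 0.67 for Abcb1a and Slc47a1. For Mfsd2a and Slc4a10 it was -0.50.

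In single nuclei several of the 10 genes were often found together. The median endothelial-like nucleus had UMIs of 3, 4 and 5 of the 10 genes and the median Tspan11 nucleus of 4 in each library, whereas the median nucleus of the Mmp2 cluster had 0, 0 and 1. Of 439 endothelial-like nuclei, Slc7a5 and Mfsd2a were both seen in 129, where the product of their shares within each library gives 95.5, and Slco1a4 and Mfsd2a in 156 against 126. Abcb1a and Abcg2, each in most nuclei, were both seen in 312 against 303. In the Tspan11 cluster Slc47a1 and Slc4a10 were both seen in 515 of 611 nuclei against a product of 480. In the Ccdc33 cluster Slc47a1 was seen in 130 of 734 nuclei, and it was seen together with Slc4a10 in 68 of them against a product of 19.3. In the Ranbp3l cluster both were seen in 15 nuclei against 3.52. Other pairs went the other way, and in the Ccdc33 cluster Slc2a1 was seen with Slc47a1 in 22 nuclei against 33.5 and with Slc4a10 in 17 against 28.4. These counts rise with the depth of a nucleus and were not tested.

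Within endothelial-like nuclei the vessel genes were unequal along the vessel. Nuclei were assigned to arterial, capillary or venous ends by which of 3 short marker lists, holding none of the 10 genes, had most markers with a UMI, which gave 12, 13 and 5 arterial, 96, 98 and 32 capillary and 53, 27 and 9 venous nuclei. Such an assignment is a range and not a type, and the other endothelial-like nuclei tied. Slc2a1, Slc7a5, Mfsd2a, Slco1a4, Abcb1a and Abcg2 were all higher in capillary than in venous nuclei in 3 of 3 libraries. The gap was widest for Slc7a5, whose capillary level was 6.87, 12.2 and 15.1 times the venous one, and for Mfsd2a, at 17.2 and 7.08 times in the adult and aged 1 libraries with no venous UMI in 9 nuclei of aged 2. It was 3.60, 4.19 and 5.68 times for Slco1a4, 4.92, 3.91 and 4.12 times for Abcb1a and 1.87, 2.35 and 3.07 times for Abcg2. For Slc2a1 it was 3.19, 1.28 and 3.88 times, and in aged 1 the counting intervals of its capillary and venous levels overlapped. Slc16a1, below free RNA in endothelial-like nuclei as a whole, was also higher in capillary than in venous nuclei in 3 of 3 libraries. Its UMIs numbered 12, 19 and 6 in capillary, 0, 1 and 0 in venous and 0, 1 and 0 in arterial nuclei. The counting intervals of these levels overlapped in every library.

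Against arterial nuclei the order held for fewer of the vessel genes. Slc7a5, Abcg2 and Slco1a4 were higher in capillary nuclei in 3 of 3 libraries, and Slc2a1, Mfsd2a and Abcb1a in 2 of 3. Where capillary nuclei were higher, the counting intervals overlapped in the adult and aged 2 libraries for Slc7a5, Slc2a1 and Mfsd2a. They also overlapped in aged 2 for Abcg2 and Slco1a4 and in aged 1 for Abcb1a. Aged library 1 went the other way for Slc2a1, at 0.477 times, and for Mfsd2a, at 0.765 times, and the adult library for Abcb1a, at 0.931 times.

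Plvap encodes the diaphragm protein of permeable endothelium and was detected in 33, 33 and 9 endothelial-like nuclei. Those nuclei had lower levels of all 6 vessel genes in 3 of 3 libraries, although in aged 1 the counting intervals overlapped for Mfsd2a and Abcg2. Slc2a1 was at 82.4, 130 and 162 CPM with a Plvap UMI and at 265, 284 and 356 CPM without, and Slc7a5 at 96.1, 108 and 231 CPM against 338, 353 and 509 CPM. Slco1a4 was at 439, 1076 and 1215 CPM with Plvap and 948, 1649 and 1791 CPM without, and Abcg2 differed least, at 714, 1094 and 1377 CPM against 1253, 1301 and 1883 CPM. Nuclei with a Plvap UMI were the deeper ones, with median UMIs of 2804, 4187 and 5140 against 2294, 3440.5 and 3250.5, so that a nucleus without a UMI is not shown to lack Plvap.

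**Figure D2:**
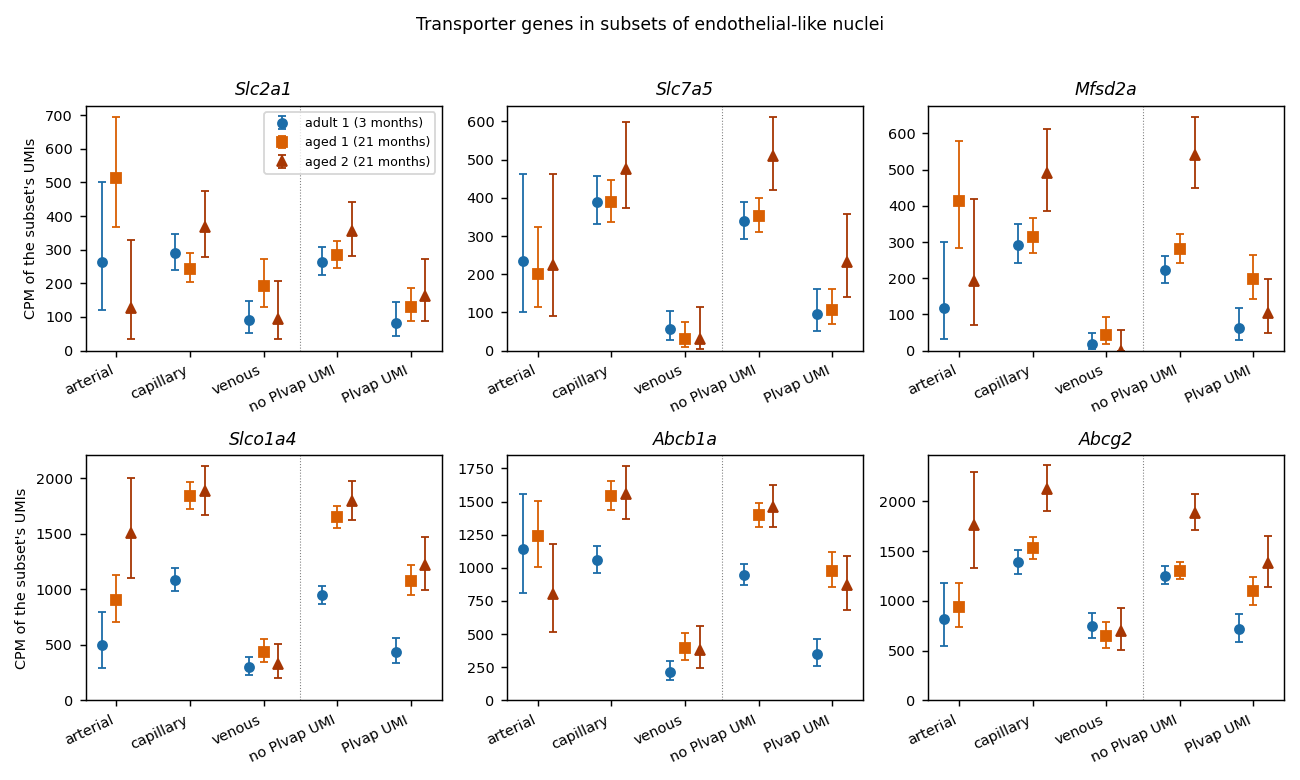
CPM (vertical axis, from 0) of 6 vessel genes in subsets of endothelial-like nuclei, with 1 point per library and exact 95% Poisson intervals that cover counting error only. Capillary points lie above venous points for each gene in each library, and points without a Plvap UMI above those with one, as for Slc7a5 at 338, 353 and 509 CPM against 96.1, 108 and 231 CPM.

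The age of the mice was the contrast that the choice of genes did not use. UMIs were summed per class and library and tested in edgeR (quasi-likelihood), and p-values were adjusted by Benjamini-Hochberg over every gene tested in the class, with a threshold of 0.05. The comparison has 1 adult and 2 aged libraries, the residual spread comes from the 2 aged ones, and the adult library is assumed to vary like them.

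In endothelial-like nuclei 221 of 11193 genes tested (1.97%) passed, 0.456% higher and 1.52% lower with age, and of the 9 transporter genes tested 0 did by edgeR, while Slc26a7 was too low to test. At an unadjusted p under 0.05 were 1161 genes, among them Mfsd2a, Slco1a4 and Slc4a10. The aged minus adult difference was 0.85 ± 0.41 on the log2 scale for Slco1a4 (SE, adjusted p = 0.417 by edgeR), 0.77 ± 0.37 for Mfsd2a (0.416) and 0.60 ± 0.39 for Abcb1a (0.676). Abcg2 had a difference of 0.34 ± 0.40 (adjusted p = 0.888 by edgeR), Slc7a5 of 0.26 ± 0.36 (0.905) and Slc2a1 of 0.20 ± 0.36 (0.930). Leaving out 1 aged library gave ranges of 0.76 to 0.93 for Slco1a4, 0.38 to 1.13 for Mfsd2a and 0.57 to 0.63 for Abcb1a. The ranges were 0.052 to 0.59 for Abcg2, -0.060 to 0.56 for Slc7a5 and 0.034 to 0.39 for Slc2a1.
Slc47a1 and Slc4a10 had lower levels in both aged libraries than in the adult one, and were below free RNA in these nuclei. The differences of Slc2a1, Slc7a5, Mfsd2a and Abcg2 turned negative under at least 1 other way of processing, while those of Abcb1a and Slco1a4 stayed positive under all that were run. Other values moved with age in the same nuclei, and their part in these differences was not tested. The estimated share of free RNA was 42.75%, 25.44% and 16.42%, the summed level of the 12 endothelial markers 7147, 7735 and 10534 CPM with none at 0, and that of 8 non-myelinating Schwann cell (NMSC) markers 3810, 2113 and 1006 CPM, with 1 of them at 0 in aged 2. The 12 neuron markers summed to 4478, 3405 and 2059 CPM with none at 0, and the 9 MSC markers to 1678, 1145 and 656 CPM with 2 at 0 in aged 2. The share of endothelial-like nuclei with 3 or more markers of another class was 82.1%, 77.4% and 65.6%. Malat1, a nuclear long noncoding RNA, took 4.44%, 1.63% and 1.64% of the UMIs, and its share was lower in both aged libraries in every class and fibroblast cluster.

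**Figure D3:**
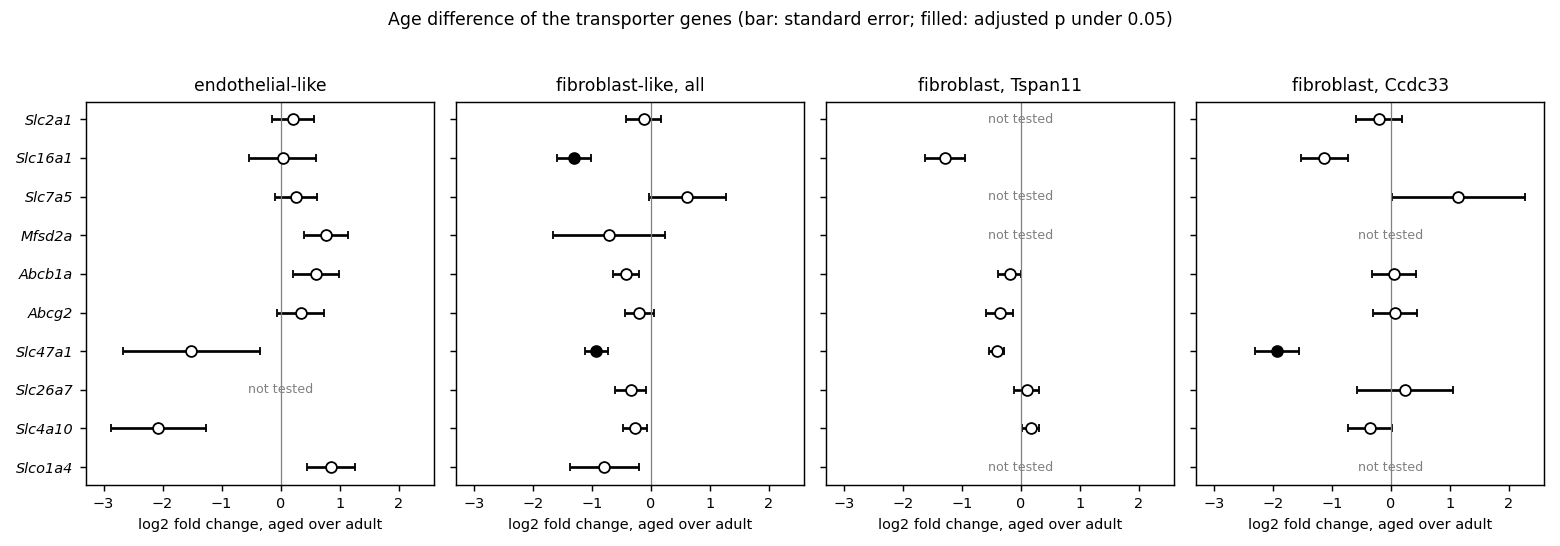
Log2 fold change of aged over adult (horizontal axis) with its standard error as a bar for each of the 10 genes that was tested, in endothelial-like nuclei, all fibroblast-like nuclei, and the Tspan11 and Ccdc33 clusters, with genes too low to test marked as such. Filled points, adjusted p under 0.05 by edgeR, are Slc16a1 (-1.30) and Slc47a1 (-0.92) in all fibroblast-like nuclei and Slc47a1 (-1.93) in the Ccdc33 cluster.

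In all fibroblast-like nuclei together 472 of 13944 genes passed (3.38%, with 1.42% higher and 1.97% lower), and 2 of the 10 transporter genes did, both lower with age. Slc16a1 stood at 90.1, 39.3 and 38.0 CPM and fell by 1.30 ± 0.29 on the log2 scale (SE, adjusted p = 0.0032 by edgeR). Slc47a1 stood at 1088, 555 and 665 CPM and fell by 0.92 ± 0.19 (adjusted p = 0.00175 by edgeR). In both genes the adult library lay above both aged ones. The aged levels of Slc16a1 were little above its free RNA, which had a mean of 34.9 CPM over libraries. Free RNA of Slc47a1 was itself lower in both aged libraries, by the levels given above. Neither call held under DESeq2's Wald test (-1.30, adjusted p = 0.584 for Slc16a1 and -0.92, 0.158 for Slc47a1), and Slc16a1 also lost it in nuclei with more than 2000 genes (-1.35, adjusted p = 0.0585 by edgeR), with differences of like size. In the same nuclei the estimated share of free RNA was 30.79%, 22.17% and 17.81%. The 9 MSC markers summed to 1012, 665 and 532 CPM and the 12 neuron markers to 2354, 2404 and 1346 CPM, with none at 0, and the part of these values in the results was not tested.

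The share of fibroblast-like nuclei in the Tspan11 cluster, where Slc47a1 was highest, was 34.1%, 23.6% and 33.5%. Of the UMIs of fibroblast-like nuclei, this cluster held 1660749 of 4228527, 457345 of 1831960 and 356332 of 1051678. The sum over clusters, which weights them by UMIs, thus also reflects their proportions. Within the Tspan11 cluster 173 of 9296 genes passed (1.86%, with 0.785% higher and 1.08% lower) and 0 of 6 transporter genes tested did by edgeR, with Slc16a1 and Slc47a1 among the 1192 genes at an unadjusted p under 0.05. The difference was -0.41 ± 0.13 for Slc47a1 (SE, adjusted p = 0.175 by edgeR) and -1.28 ± 0.33 for Slc16a1 (0.0837). The ion exchangers had 0.10 ± 0.21 for Slc26a7 (adjusted p = 0.914 by edgeR) and 0.16 ± 0.15 for Slc4a10 (0.761), and the exporters -0.19 ± 0.19 for Abcb1a (0.794) and -0.36 ± 0.24 for Abcg2 (0.620). Slc47a1 passed here in nuclei with more than 2000 genes (-0.50, adjusted p = 0.0418 by edgeR) and after subtraction of free RNA (-0.58, 0.0482).

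In the Ccdc33 cluster 135 of 11554 genes passed (1.17%, with 0.381% higher and 0.788% lower) and 1 of 8 transporter genes tested did. Slc47a1, at 280, 114 and 26.1 CPM from 396, 87 and 7 UMIs, fell by 1.93 ± 0.37 on the log2 scale (SE, adjusted p = 8.68e-05 by edgeR). The aged libraries lay apart, with a difference of -3.48 without aged 1 and of -1.42 without aged 2. The call was lost with free RNA subtracted (-2.11, adjusted p = 0.811 by edgeR) and under DESeq2's Wald test (0.9998). Slc16a1 had a difference of -1.13 ± 0.40 (adjusted p = 0.194 by edgeR), and it passed with nuclei thinned to 1000 UMIs (-2.15, adjusted p = 0.0144 by edgeR). In the same nuclei the 12 fibroblast markers summed to 8234, 5268 and 7100.1 CPM and the 9 MSC markers to 1092, 713 and 637 CPM, with none at 0, and the 8 NMSC markers to 2859, 2642 and 976 CPM with 1 at 0 in aged 2. Among defining markers, Pax9 stood at 298, 138 and 168 CPM beside the Itgb4 levels given above. The part of these values in the result was not tested.

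**Figure D4:**
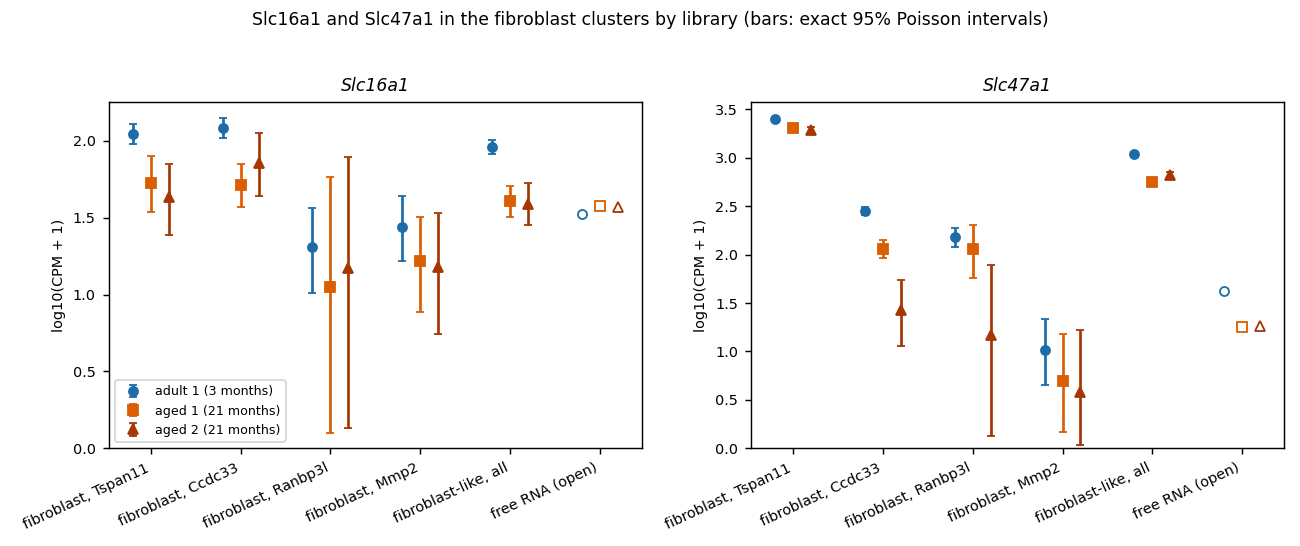
Level of Slc16a1 and Slc47a1 as log10(CPM + 1) on the vertical axis by fibroblast cluster, with 1 point per library, exact 95% Poisson intervals and free RNA as open points. The adult point is highest in the Tspan11 and Ccdc33 clusters for both genes, as for Slc47a1 at 280 CPM against 114 and 26.1 CPM in the Ccdc33 cluster.

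In the Mmp2 cluster 365 of 10026 genes passed (3.64%, with 1.67% higher and 1.97% lower) and in the Ranbp3l cluster 26 of 3431 (0.758%, with 0.146% higher and 0.612% lower). There 0 of 4 transporter genes tested passed in each by edgeR, among 1230 and 138 genes at an unadjusted p under 0.05. The age difference in endothelial-like minus that in fibroblast-like nuclei was tested as an interaction, in which 60 of 13097 genes (0.458%) passed and none of the 10 did by edgeR, with Slco1a4, Abcb1a, Slc4a10, Slc16a1 and Mfsd2a at an unadjusted p under 0.05. The smallest p-value belonged to Slco1a4, with 1.57 ± 0.37 on the log2 scale (SE, adjusted p = 0.0503 by edgeR), followed by Abcb1a at 0.97 ± 0.25 (0.0972) and Slc4a10 at -1.74 ± 0.48 (0.125).

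Outside vessels and sheath most calls lay at levels below free RNA. In MSC-like nuclei, where 1351 of 13564 genes passed (9.96%, with 3.8% higher and 6.16% lower), 4 of 10 transporter genes did, all lower with age. Of these, Mfsd2a alone was above free RNA, and it fell by 0.60 ± 0.21 on the log2 scale (SE, adjusted p = 0.0496 by edgeR), a call lost in 6 other ways of processing. Slc47a1 (-2.39, adjusted p = 6.34e-07 by edgeR), Slc4a10 (-2.21, 3.99e-08) and Abcb1a (-1.22, 0.0138) were below free RNA in every library. The free RNA levels of these genes, given above, were also lower in both aged libraries than in the adult one. The Slc47a1 difference was -4.90 without aged 1 and -1.95 without aged 2. The 9 markers of MSC summed to 42813, 18599.5 and 17168 CPM in these nuclei, with none at 0, and the estimated share of free RNA was 28.47%, 15.68% and 13.87%. The part of these values in the results was not tested.

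In NMSC-like nuclei, where 9.2% of 12534 genes passed (4.28% higher and 4.91% lower), 2 of 6 transporter genes tested did. Mfsd2a at 16.3, 5.48 and 4.24 CPM fell by 1.86 ± 0.63 (adjusted p = 0.0382 by edgeR), and Abcg2 at 7.68, 42.5 and 26.9 CPM rose by 2.04 ± 0.45 (0.000217). In the same nuclei the 12 fibroblast markers summed to 578, 1476 and 1393 CPM with none at 0, and 69.7%, 90.1% and 79.6% had 3 or more markers of another class. Their part in the result was not tested. In SGC-like nuclei (14.9% of 15641 genes passed, 8.22% higher and 6.69% lower) 1 of 10 did, and Slc7a5 rose by 1.22 ± 0.41 from 3.85 to 11.6 and 8.45 CPM (adjusted p = 0.028 by edgeR). SGC-like nuclei joined the cluster led by Cyp4f15 with a smaller one led by Slc1a2, which held 314 of 3261, 123 of 526 and 32 of 257 nuclei and had 9 of 12 neuron markers at 25% or more of their highest cluster level and in at least 10% of its nuclei. Slc7a5 was at 10.0, 22.8 and 24.7 CPM in the smaller cluster and at 2.92, 5.41 and 4.50 CPM in the larger. The 12 neuron markers summed to 2486, 4849 and 3286 CPM in SGC-like nuclei with none at 0, and the part of these values in the result was not tested. In neuron-like nuclei (9.19% of 21940 genes passed, 1.8% higher and 7.39% lower) 2 of 10 did. Slc47a1 fell by 1.23 ± 0.30 (adjusted p = 0.0012 by edgeR) and Slco1a4 rose by 1.37 ± 0.33 (0.000879), both below free RNA. The Slco1a4 difference was 0.69 without aged 1 and 1.79 without aged 2. In free RNA, by the levels given above, Slc47a1 and Mfsd2a were also lower in both aged libraries than in the adult one. Abcg2 and Slc7a5 were also higher there in both, and Slco1a4 was highest in aged 1. The part of free RNA in these calls was not tested. Every call in MSC-, NMSC-, SGC- and neuron-like nuclei was lost under at least 1 other way of processing, DESeq2's Wald test among them for all but Slc7a5, for which it gave no adjusted p.

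A wider list of 59 other barrier genes, chosen with earlier results known, was read in the same fits. In endothelial-like nuclei 45 were tested, 0 were higher and 2 lower with age, against 0.456% and 1.52% of all genes. These were Slc7a2, a carrier of cationic amino acids (-1.48, adjusted p = 0.00767 by edgeR), and Abca8a, a lipid transporter of the ABC family (-1.13, 0.0486). The median difference was -0.23 for the list and 0.01 for all genes.

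In fibroblast-like nuclei 49 were tested, of which 2 were higher and 4 lower, against 1.42% and 1.97% of all genes. Abca1, which exports cholesterol, rose by 0.92 (adjusted p = 0.0185 by edgeR) and the organic anion carrier Slco2b1 by 1.01 (0.0378). The glutamine carriers Slc38a2 (-0.81, adjusted p = 0.00201 by edgeR) and Slc38a3 (-2.01, 0.00765) were lower, as were the sulfate carriers Slc26a2 (-1.10, 0.0032) and Slc13a4 (-0.93, 0.0451). The sum over clusters also reflects their proportions here, since the Ranbp3l cluster, which has Slc38a3 among its leading genes, was 10.4%, 5.21% and 5.50% of fibroblast-like nuclei. Within it Slc38a3 was at 189.8, 82.2 and 180.4 CPM, with a difference of -0.79 ± 0.66 (SE, adjusted p = 0.9999 by edgeR). Within the Tspan11 cluster the difference was -0.35 ± 0.12 for Slc38a2 (adjusted p = 0.227 by edgeR) and -0.80 ± 0.20 for Slc26a2 (0.0750).

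In the Tspan11 cluster 1 of 33 tested, Abca1, was higher (1.09, adjusted p = 0.04998 by edgeR), against 0.785% of all genes, and in the Ccdc33 cluster none of 41 passed by edgeR, against 1.17% of all genes. The Mmp2 cluster had 3 higher and 2 lower of 35 tested, against 1.67% and 1.97% of all genes, and those given here were named after their values were seen. The cystine carrier Slc7a11 (2.66, adjusted p = 4.27e-09 by edgeR), Abca1 (1.43, 0.00179) and the caveolar coat gene Cav1 (1.75, 0.00762) were higher. The GABA and taurine carrier Slc6a13 was lower (-1.40, adjusted p = 0.00774 by edgeR).

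Outside vessels and sheath, 2 of 38 listed genes tested were higher and 8 lower in NMSC-like nuclei, against 4.28% and 4.91% of all genes. The taurine carrier Slc6a6 (1.45, adjusted p = 0.000242 by edgeR) and the bicarbonate carrier Slc4a7 (1.41, 0.00022) were higher there. Among the lower ones were the bicarbonate carrier Slc4a4 (-1.39, adjusted p = 8.58e-13 by edgeR) and Slc7a2 (-1.10, 0.000763). In SGC-like nuclei 2 of 50 were higher (Slc7a1 and Abcc4) and 4 lower (Slc3a2, Slco1c1, Slco2a1 and Slc13a4), against 8.22% and 6.69%. In MSC-like nuclei 2 of 44 were higher (Abcc1 and Abca1) and 5 lower, Slc4a4 among them, against 3.8% and 6.16%. In neuron-like nuclei 5 of 56 passed, all lower (Slc2a12, Slc38a3, Slc6a13, Slco2a1 and Slc13a4), against 7.39% of all genes lower. The genes of this paragraph were named after their values were seen.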

How the data were processed

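The authors deposited raw UMI counts per gene and barcode for 3 libraries of frozen L3 to L5 DRG nuclei (PIP-seq, Pipseeker, build mm10 per the submitters' notes; the annotation is not given in the sources used here, and counting is not stated to use strand). The libraries held 167664164, 95647106 and 69045987 UMIs. Barcodes with more than 1000 genes gave 19259 nuclei; pairs of libraries shared 1, 1 and 0 barcodes. Clustering used Seurat 5.3.0 in R 4.3.3 (3000 variable features, without 9 of the transporter genes found among them, 30 principal components, resolution 0.8) and gave 31 clusters, named from marker lists. The naming rule planned at first was replaced after the clusters were seen, and endothelial and fibroblast clusters got the same names under both. Under the planned rule the MSC-, NMSC-, mural- and lymphocyte-like clusters would have been left out as mixed. Some neuron clusters would have had no name. The results for these classes thus rest on the later rule. No doublet caller was run, and 1 mixed cluster of 749 nuclei was left out. Free RNA was taken from barcodes under 100 UMIs, and shares were also computed after thinning to 1000 UMIs. The genes and lists were chosen with earlier results of these data known. Some genes that the rules would name are not reported here.

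UMI sums per class and library were tested with edgeR 4.0.16 (trimmed mean of M-values scaling, filterByExpr, quasi-likelihood test, Benjamini-Hochberg adjustment, 1 residual degree of freedom); DESeq2 1.42.0 was an alternative. The study's test on single nuclei was not used, as nuclei are not replicates. An exact permutation test of 1 against 2 libraries cannot go below p = 0.333. Age values are given for each gene in its highest class among those fitted and wherever it passed; listed barrier genes that passed in endothelial-like or fibroblast-like sums are named, at most 3 a group. The edgeR step was tested on simulated data. Gene positions come from GENCODE M21 (GRCm38) and promoters from RefSeq (GRCm38.p6).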

Additional observations from a re-analysis of the deposited data

Results flagged for a closer look

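The cluster of 749 nuclei that had markers of several classes entered no comparison, and all 10 genes had a level there above the limit that 3 counts allow (1.18 CPM). Over its nuclei of all libraries, Abcg2 was at 76.1 CPM, Slc16a1 at 36.7 CPM, Abcb1a at 36.3 CPM, Slc2a1 at 35.1 CPM and Slc7a5 at 33.9 CPM. Slco1a4 was at 25.6 CPM, Slc4a10 at 19.3 CPM, Mfsd2a at 16.2 CPM, Slc47a1 at 10.6 CPM and Slc26a7 at 6.70 CPM. The source of these UMIs was not tested.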

How the results depend on the processing

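No paired analysis was possible because adult and aged libraries come from different mice and the labels pair none of them. The class with the highest level stayed the same for 10 of 10 genes under the alternatives run, although gating by markers took fibroblast-like nuclei as 1 class and the dividing cluster, highest for Slc16a1, had 2, 8 and 12 nuclei at more than 2000 genes, and 50 of 67 levels moved by less than 1 SD. Of 201 alternative age values of the 10 genes, 151 counted as the same, 35 lost the call, 3 gained it and 12 reversed. The values that left out 1 aged replicate have no p-value and counted as the same on direction alone. The others counted as the same kept direction and call. Reversed on the log2 scale were, in endothelial-like nuclei, Slc2a1 (-0.024 with more than 2000 genes per nucleus, -0.23 with free RNA subtracted), Slc7a5 (-0.21 with free RNA subtracted, -0.10 without nuclei holding markers of another class, -0.060 to 0.56 leaving out 1 aged replicate), Mfsd2a (-0.18 without such nuclei) and Abcg2 (-0.13 with free RNA subtracted, -0.0036 without such nuclei), and in the Tspan11 cluster Slc26a7 (-0.064 with free RNA subtracted) and Slc4a10 (-0.065 thinned, -0.0029 with free RNA subtracted, -0.0050 to 0.31 leaving out 1 aged replicate). Counts of genes that passed stayed within 1.5 times in 30 of 77 alternatives. DESeq2's Wald test gave 15 in endothelial-like, 70 in fibroblast-like, 11 in Ccdc33, 33 in Mmp2, 0 in Ranbp3l (edgeR 26, with 138 at an unadjusted p under 0.05), 35 in Tspan11, 499 in SGC-like, 175 in MSC-like, 222 in NMSC-like and 587 in neuron-like nuclei, and 1 for the interaction. More than 2000 genes per nucleus gave 191 in fibroblast-like, 38 in Ccdc33, 573 in Mmp2, 504 in Tspan11, 1080 in SGC-like, 619 in MSC-like and 517 in NMSC-like nuclei. Thinning gave 41 in endothelial-like, 110 in Mmp2, 7 in Ranbp3l, 94 in Tspan11, 408 in SGC-like, 467 in MSC-like, 546 in NMSC-like and 365 in neuron-like nuclei. Subtracting free RNA gave 408 in endothelial-like, 269 in fibroblast-like, 454 in SGC-like and 900 in MSC-like nuclei, and edgeR then called 0 in Ccdc33 and 0 in neuron-like nuclei. Gating nuclei by markers gave 40 in endothelial-like, 1174 in fibroblast-like, 556 in SGC-like and 1 in NMSC-like nuclei. Without nuclei holding markers of another class, 56 passed in endothelial-like, 82 in Ccdc33, 42 in Mmp2, 305 in SGC-like, 340 in MSC-like, 104 in NMSC-like and 444 in neuron-like nuclei. DESeq2's size factors gave 473 in Tspan11 and 20 for the interaction, and no filter 466 and 113. The causes were not tested. Gating replaced clusters by classes and was not run for the fibroblast clusters. The Ranbp3l cluster was not run with more than 2000 genes (47, 9 and 6 nuclei) or without nuclei holding markers of another class (38, 4 and 5), for want of 10 nuclei per library, and DESeq2 gave no adjusted p for Slc7a5 in SGC-like nuclei.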
